A study of Mus musculus with 15 samples.

Results

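The genes of the hyaluronan matrix that forms around the oocyte at cumulus expansion were followed across 3 stages of mouse cumulus cells. The 10 genes Has2, Has1, Tnfaip6, Ptx3, Vcan, Cd44, Hapln1, Itih5, Hyal2 and Hyal1 were chosen by name, and their probes were found by gene symbol in the deposited expression table. Of the 20855 gene probes of that table, 12 belonged to 8 of these genes, and Has1 and Hapln1 had no probe in it. Both are described from the scanner output, where 5 further probes of the listed genes were matched by transcript record (1 each for Has1, Hapln1 and Vcan and 2 for Cd44). The question of the comparison was how gene expression in the cumulus, the somatic layers around the oocyte, changes as the oocyte gains competence and matures.

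Cumulus cells came from B6CBAF1/J mice, with 5 arrays per stage and a pool of mice on each array. NC1 cells were from unexpanded complexes of 3-week-old juveniles, with a prophase I oocyte labelled as developmentally incompetent, and C1 cells were from unexpanded complexes of 8-week-old adults, with a competent prophase I oocyte. C2 cells were from expanded complexes recovered from the oviduct of 8-week-old adults superovulated with PMSG and then hCG, with an oocyte in metaphase II. NC1 and C1 cells were stripped from the oocyte by pipetting, and C2 cells were dispersed with hyaluronidase at 300 µg/ml. Stage therefore cannot be told apart from age between NC1 and C1, nor, between C1 and C2, from the superovulation, the oviductal site or the enzyme. In these bulk samples fewer cells of a type and less RNA per cell cannot be told apart. The p-values measure the spread between the pools.

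Hyaluronan is a long, unbranched polysaccharide made at the plasma membrane and extruded from the cell. After the ovulatory surge of gonadotropin, cumulus cells retain it in an organised matrix in which heavy chains of inter-alpha-inhibitor are bound covalently to hyaluronan and held together by accessory proteins, so that the cumulus-oocyte complex expands. Other proteins link the polymer to proteoglycans and to the cell surface, and hyaluronidases break it down.

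Values are log2 of the scanner's processed signal minus the median of each array, so that 0 is the median valid probe and 1 unit is a doubling. A valid probe cleared background on 4 or more arrays of each stage, as 17323 probes did. Of the member probes, 4 were valid (Hyal2, Vcan probes 1 and 2 and Tnfaip6 probe 1). The other 8 were tested among the 20844 probes that did so in 1 stage or more. Of these 8, both Cd44 probes and Tnfaip6 probes 2 and 3 entered through C2 alone. Itih5 and Hyal1 passed at NC1 and C1 but not at C2, and Has2 and Ptx3 at NC1 and C2 but not at C1. A difference was thus built into the entry of all 8, and no count over them is evidence for a change of the group. A call is an adjusted p under 0.01 in limma.

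C1 replicate 4 stood apart from the other C1 arrays in several of the genes below, so that the differences between C2 and C1 that it moved are given with and without it. Its number of probes well above background was 24493, against 19167 to 21208 in the other C1 arrays. The arrays of a stage correlated at 0.976 or more over valid probes in all 3 stages, C1 replicate 4 included. Foxl2, which marks the granulosa lineage, had mean log2 signals of 4.21 (NC1), 4.03 (C1) and 4.06 (C2), and the other 9 granulosa markers, Amh among them, were called lower at C2 than at C1. Of all 17323 valid probes 22.2% were called lower there, and of the 20844 probes 24.5%. Kitl, one of the markers, did not pass the background filter at C2, so that a lower C2 was built into its entry.

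At C2 the transcripts of the matrix-building genes Has2, Tnfaip6 and Ptx3 and of the receptor Cd44 were higher than at C1, and Itih5, Hyal2 and Hyal1 were lower. Vcan did not pass the threshold between C1 and C2 with all arrays and passed without C1 replicate 4, and also under other scalings given below. Between C2 and C1, 10 of the 12 member probes were called, 7 higher and 3 lower, for 7 of the 8 genes. The background was high, with 47.6% of the valid probes and 48.7% of the wider set called (25.4% higher and 22.2% lower among valid probes, 24.2% higher and 24.5% lower in the wider set). The share of higher calls depended on the scaling. It was 53.3% of the valid probes called and 49.7% of those in the wider set, and became 74.7% and 67.7% when arrays were scaled by the median of all gene probes or taken from the authors' table, and 38.1% and 34.8% with spike-in controls. The median change of all valid probes between C2 and C1 was 0.02, and moved to 0.33 with scaling by all gene probes and to -0.14 with spike-in controls. The C2 and C1 arrays did not overlap in 8 of the 12 member probes, against 44.9% of the wider set, and in 11 of 12 without C1 replicate 4, against 48.2%. Without that array 12 of 12 were called, against 45.6% of the valid probes and 47.2% of the wider set.

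**Figure D1:**
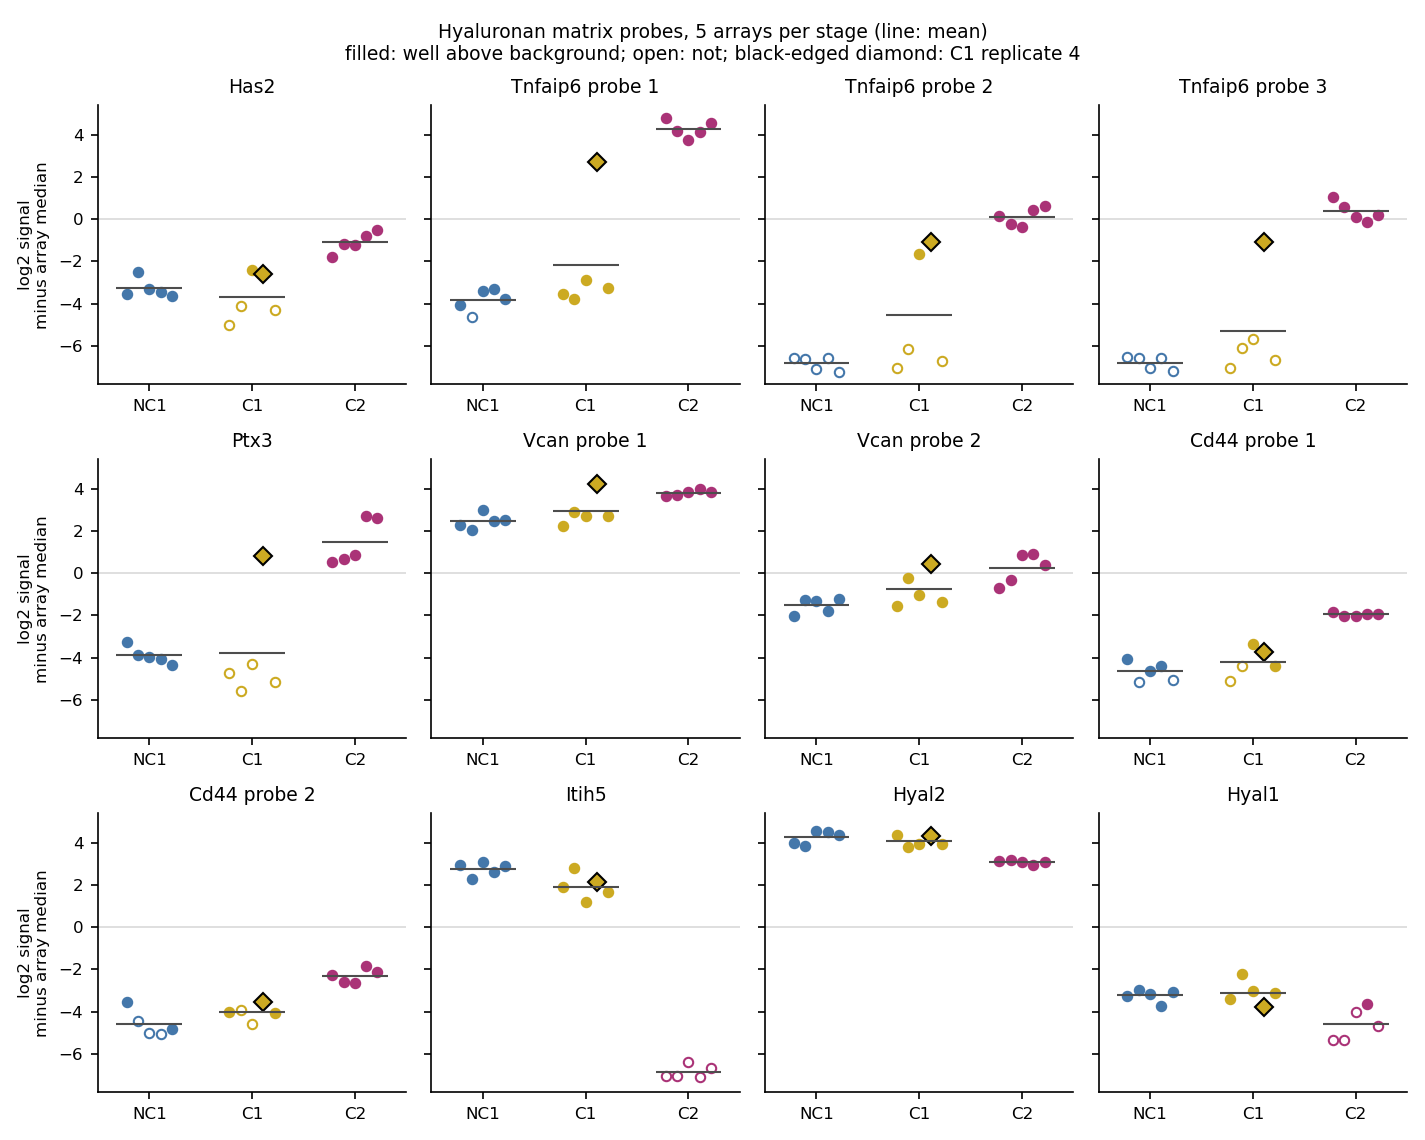
Log2 signal relative to the array median (vertical axis) of the 12 member probes in the 15 arrays, grouped by stage (NC1, C1 and C2, 5 arrays each), with the stage mean as a line, filled points for arrays well above background, open points for the rest, and C1 replicate 4 as a black-edged diamond. Tnfaip6 probe 1 reached 3.75 to 4.78 at C2 against -3.77 to -2.90 in 4 C1 arrays, while Itih5 fell to between -7.09 and -6.37.

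Has2 encodes the main hyaluronan synthase of expanding cumulus. Its signal was -3.53, -2.49, -3.29, -3.44 and -3.63 in NC1 replicates 1 to 5, -5.02, -4.12, -2.42, -2.59 and -4.28 in C1 replicates 1 to 5, and -1.79, -1.20, -1.24, -0.78 and -0.51 in C2 replicates 1 to 5. All C2 arrays lay above all C1 and NC1 arrays, C1 was the most spread stage with replicates 3 and 4 highest, and NC1 and C1 overlapped. The probe was well above background in 5 NC1, 2 C1 and 5 C2 arrays. The mean was -3.69 ± 1.13 (SD, n = 5) at C1 and -1.10 ± 0.49 at C2, a difference of 2.58 (SE 0.43, 95% interval 1.66 to 3.51, limma adjusted p = 9.94e-05), and without C1 replicate 4 it was 2.86. No fold is given, since C1 was mostly not above background. Within the 4 slides, each of which held all 3 stages, the difference ran from 0.62 to 4.06. With a normexp background correction it was 1.70. Has2 was also higher at C2 than at NC1, by 2.17 (limma adjusted p at or under 0.00224 for every member probe in that comparison).

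Has1, a further synthase of the same family, gave no stage pattern. It was well above background in 3 NC1, 3 C1 and 2 C2 arrays, and its signal ran from -4.98 to -3.68 at NC1, from -4.75 to -3.46 at C1 and from -4.87 to -4.24 at C2. All 3 stages overlapped, and the probe was in neither tested set.

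Tnfaip6 encodes TSG-6, a secreted protein that transfers heavy chains onto hyaluronan. The log2 signal of its probe 1 was -4.07, -4.64, -3.42, -3.30 and -3.79 in the NC1 arrays, -3.53, -3.77, -2.90, 2.70 and -3.25 in the C1 arrays, and 4.78, 4.16, 3.75, 4.14 and 4.57 in the C2 arrays, in replicate order. C2 arrays were above every other array, and C1 replicate 4 lay between the other C1 arrays and C2. The mean rose from -2.15 ± 2.73 (SD, n = 5) at C1 to 4.28 ± 0.40 at C2, by 6.43 (SE 0.89, 95% interval 4.55 to 8.31, limma adjusted p = 1.02e-05), or 86.2-fold. Without C1 replicate 4 the C1 mean was -3.36 ± 0.37 (n = 4) and the difference 7.64.

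Both other Tnfaip6 probes, annotated to the same transcript record, moved in the same direction. Probe 2 ran from -7.22 to -6.57 at NC1, was -7.06, -6.13, -1.64, -1.07 and -6.74 at C1, and ran from -0.39 to 0.62 at C2. Probe 3 ran from -7.19 to -6.52 at NC1, was -7.03, -6.08, -5.67, -1.09 and -6.69 at C1, and ran from -0.13 to 1.05 at C2. C1 replicate 4 was raised in all 3 probes, whereas C1 replicate 3 was raised in probe 2 but not in probes 1 and 3, so that the probes disagreed on that array. Neither probe was well above background in any NC1 array, and C2 was at least 28.6-fold and 34.0-fold higher than NC1 for probes 2 and 3. The differences between C2 and C1 were 4.64 (SE 0.97, limma adjusted p = 6.92e-04) for probe 2 and 5.67 (SE 0.81, adjusted p = 2.03e-05) for probe 3, and without C1 replicate 4 they were 5.51 and 6.73. The probe 2 difference was 4.01 without C1 replicate 1 and 5.37 without C1 replicate 3. With normexp the 3 differences were 5.68, 2.90 and 3.67. On the slide that held C1 replicate 4 they were 1.45, 1.17 and 1.31, against up to 8.21, 7.21 and 6.81 on the other slides. The probe 2 difference was also small, at 1.78, on the slide that held C1 replicate 3.

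Ptx3 encodes pentraxin 3, a multimeric protein that holds the heavy chain-bearing hyaluronan strands together. Its signal was -3.27, -3.89, -3.95, -4.05 and -4.33 at NC1, -4.74, -5.60, -4.30, 0.81 and -5.14 at C1, and 0.53, 0.66, 0.84, 2.70 and 2.62 at C2. C1 replicate 4 lay among the C2 arrays, while the other 4 C1 arrays were below the lowest C2 array. The probe was well above background in all NC1 and C2 arrays but at C1 in replicate 4 only. The mean rose from -3.79 ± 2.62 (SD, n = 5) at C1 to 1.47 ± 1.09 at C2, by 5.27 (SE 0.93, 95% interval 3.27 to 7.26, limma adjusted p = 1.66e-04). Without C1 replicate 4 the C1 mean was -4.94 ± 0.56 (n = 4), the fitted difference 6.42, and C2 at least 55.0-fold higher. The within-slide difference ran from 0.88, on the slide of C1 replicate 4, to 7.79, and with normexp the difference was 3.73. C2 replicates 4 and 5 were also the C2 arrays with the lowest oocyte signal. H1f8, the oocyte linker histone, was 2.52, 2.91 and 3.04 in C2 replicates 1 to 3 and -3.60 and -3.57 in replicates 4 and 5. The summed level of the oocyte markers ran from 0.691 to 17.0 times the array median at C2 and from 12.4 to 39.0 at C1, 4 of 9 tested were called lower at C2, and Zp2 was well above background in all NC1 and C1 and in 0 C2 arrays. Over all probes 22.2% (valid) and 24.5% (wider) were called lower. Among the markers called, Zp1, Zp2 and Zp3 did not pass the background filter at C2, so that a lower C2 was built into their entry. The part of oocyte RNA in the split of the Ptx3 values was not tested.

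The promoters of Tnfaip6 and Ptx3 are shown because these genes, whose products act together on hyaluronan, had the greatest increases of the listed genes. The sequences are from RefSeq (GRCm38.p6, plus strand) and run from 250 bases before the transcription start, at chr2:52037863-52038162 for Tnfaip6 and chr3:66219637-66219936 for Ptx3. Capitals mark the letters TGANTCA of an AP-1 element.
Tnfaip6: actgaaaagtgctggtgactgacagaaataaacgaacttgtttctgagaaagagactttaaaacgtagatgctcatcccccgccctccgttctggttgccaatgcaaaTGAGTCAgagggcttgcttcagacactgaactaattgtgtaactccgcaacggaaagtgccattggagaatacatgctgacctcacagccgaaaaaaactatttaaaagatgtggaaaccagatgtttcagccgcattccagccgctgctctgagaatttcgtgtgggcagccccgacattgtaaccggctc
Ptx3: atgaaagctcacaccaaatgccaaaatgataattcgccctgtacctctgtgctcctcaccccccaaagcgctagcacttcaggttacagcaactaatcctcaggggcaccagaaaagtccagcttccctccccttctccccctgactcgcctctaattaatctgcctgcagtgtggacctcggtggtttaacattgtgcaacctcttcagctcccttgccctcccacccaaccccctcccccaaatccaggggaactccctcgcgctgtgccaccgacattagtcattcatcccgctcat
Of 6 motifs searched on both strands, the AP-1 letters were found in Tnfaip6, beginning 142 bases before its start, and in 7.81% of all 32851 promoters of the table. Tnfaip6 also held the GC box letters GGGCGG, present in 35.7% of promoters. Ptx3 held none of the 6. The full cAMP response element, with the letters TGACGTCA and present in 1.79% of promoters, occurred among the 9 members with a promoter in Has1 alone, 83 bases before its start. The core TGACG, which the full element contains, occurred in 20.8% of promoters and among the other members in Hapln1. RUNX letters TGTGGT (16.8%) occurred in Hapln1 and Hyal1, GC box letters in Tnfaip6, Vcan, Cd44, Itih5, Hyal2 and Hyal1, and the TATA box letters TATAAA (13.6%) in no member. These matches describe letters only.

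Itih5 is a member of the family of inter-alpha-inhibitor heavy chains. Its signal was 2.93, 2.30, 3.07, 2.61 and 2.90 at NC1, 1.88, 2.79, 1.18, 2.11 and 1.66 at C1, and -7.03, -7.05, -6.37, -7.09 and -6.66 at C2. It was well above background in every NC1 and C1 array and in no C2 array, and C1 overlapped NC1 in replicate 2 alone. The C1 mean was 1.92 ± 0.59 (SD, n = 5) and the C2 mean -6.84 ± 0.32, with a limma adjusted p of 1.68e-12. Since C2 gives only a bound, C1 was at least 105-fold higher than C2, and NC1 at least 188-fold higher. The fitted difference between C2 and C1 was -8.76 and, within slides, -9.18 to -8.02. With normexp it was -5.96. Markers of theca and stroma were lower at C2 as well. All 8 were called lower at C2, against 22.2% of the valid probes and 24.5% of the wider set. Their summed level ran from 9.95 to 16.6 times the array median at C1 and from 0.510 to 0.738 at C2 (11.2 to 53.5 at NC1). Lum, Tcf21 and Pdgfra were well above background in 0 C2 arrays, so that a lower C2 was built into their entry. Within NC1 the summed level was highest in replicates 1 and 2 (53.5 and 34.2), where Itih5 was 2.93 and 2.30. The granulosa markers other than Foxl2 were also called lower at C2. The part of theca and stroma cells in the Itih5 difference was not tested.

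Vcan encodes versican, a chondroitin sulfate proteoglycan that binds hyaluronan. Probe 1 gave 2.28, 2.06, 3.00, 2.49 and 2.51 at NC1, 2.25, 2.91, 2.71, 4.21 and 2.69 at C1, and 3.67, 3.70, 3.83, 3.98 and 3.86 at C2. C1 replicate 4 was above all C2 arrays, and the other C1 arrays were below them. The mean was 2.95 ± 0.74 (SD, n = 5) at C1 and 3.81 ± 0.13 at C2, a difference of 0.86 (SE 0.27, 95% interval 0.28 to 1.43) that did not pass the threshold (limma adjusted p = 0.0122). Without C1 replicate 4 it was 1.17 and passed (adjusted p = 2.64e-05).

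Probe 2 of Vcan, annotated to another transcript record, was -2.05, -1.28, -1.34, -1.79 and -1.20 at NC1, -1.57, -0.23, -1.05, 0.45 and -1.38 at C1, and -0.70, -0.33, 0.88, 0.89 and 0.40 at C2. C1 replicates 2 and 4 lay within the C2 range. The difference between C2 and C1 was 0.98 (SE 0.38, limma adjusted p = 0.0333), and 1.29 without C1 replicate 4 (adjusted p = 0.00402). On the slide that held C1 replicate 4 the differences were -0.37 and -0.17 for probes 1 and 2, and they were positive on the other 3 slides. Both probes also passed with scaling by all gene probes, with 1.17 (adjusted p = 0.00404) and 1.29 (adjusted p = 0.00630). Against NC1, versican was higher at C2 by 1.34 and 1.76, and both differences passed. The remaining Vcan probe was well above background in 1 array, C1 replicate 4, at -5.94.

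Hapln1 encodes the link protein that stabilises the binding of versican to hyaluronan. Its signal was -3.52, -3.42, -4.05, -5.39 and -4.84 in the C2 arrays, and ran from -6.72 to -6.12 at NC1 and from -6.96 to -5.50 at C1. All C2 arrays were above the other stages, but only C2 replicates 1 and 2 were well above background, and no NC1 or C1 array was. No fold or test is given, since the probe was in neither tested set and most C2 arrays were not above background. Hapln1 and Vcan are neighbours on the same chromosome, as are Hyal2 and Hyal1, with no gene lying wholly between either pair in RefSeq.

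Cd44 encodes a cell surface receptor for hyaluronan. Probe 1 was -4.08, -5.14, -4.62, -4.38 and -5.04 at NC1, -5.12, -4.38, -3.33, -3.75 and -4.39 at C1, and -1.82, -2.05, -2.02, -1.93 and -1.95 at C2. Probe 2 was -3.53, -4.43, -5.03, -5.04 and -4.83 at NC1, -4.03, -3.90, -4.56, -3.54 and -4.05 at C1, and -2.26, -2.59, -2.62, -1.85 and -2.13 at C2. In both probes all C2 arrays were above all others, and C2 was the tightest stage. The differences between C2 and C1 were 2.24 (SE 0.28, limma adjusted p = 4.38e-06) and 1.73 (SE 0.27, adjusted p = 4.90e-05), or 4.74-fold and 3.31-fold, with C1 well above background in 3 of 5 arrays for each probe. They ran from 1.51 to 2.81 and from 1.32 to 2.31 within slides, were 2.35 and 1.85 without C1 replicate 4, and were 1.33 and 1.01 with normexp. The 2 further Cd44 probes were not well above background in any array. Leukocytes also carry Cd44. Of their 9 markers 8 were on the array and 6 were tested, with 0 called by limma between C2 and C1, and their summed level ran from 4.12 to 5.28 times the array median at C1 and from 4.22 to 6.59 at C2. That sum was carried by Itgam, at a mean of 1.74 at C1 and 1.52 at C2. The differences of Adgre1, Ptprc, C1qa and Csf1r, none of which passed in the main fit, were 0.82, 0.61, 0.43 and 0.38. Between C2 and NC1, where Cd44 also differed, 3 of the 6 were called higher, C1qa by 1.82, Adgre1 by 1.62 and Csf1r by 1.23. Over all probes 51.5% (valid) and 52.4% (wider) were called in that comparison, in either direction. Ptprc, the common leukocyte antigen, was well above background in 1 C1 and 4 C2 arrays. Both Ptprc (0.92) and Adgre1 (1.13) passed between C2 and C1, higher at C2, with scaling by all gene probes and in the authors' table. Ptprc also passed with quantile normalization (0.81) and without C1 replicate 3 (0.91). Both Ptprc and Adgre1 entered the tested set through C2 alone, so that a higher C2 was built into their entry. The part of leukocytes in the Cd44 difference was not tested.

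Hyal2 encodes a hyaluronidase anchored at the cell surface, and it was the only member well above background in all arrays other than Vcan probes 1 and 2. Its signal was 3.98, 3.85, 4.57, 4.52 and 4.36 at NC1, 4.34, 3.81, 3.96, 4.31 and 3.93 at C1, and 3.11, 3.15, 3.08, 2.93 and 3.08 at C2. All C2 arrays were lower than all C1 and NC1 arrays. The mean fell from 4.07 ± 0.24 (SD, n = 5) to 3.07 ± 0.09, a difference of -0.999 (SE 0.15, 95% interval -1.31 to -0.69, limma adjusted p = 2.18e-05), or 2.00-fold. Within slides it ran from -1.27 to -0.85. It was -0.69 and no longer passed with scaling by all gene probes or in the authors' table (adjusted p = 0.0190 for each).

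Hyal1 encodes a lysosomal hyaluronidase that degrades smaller fragments. Its signal was -3.24, -2.96, -3.18, -3.73 and -3.06 at NC1, -3.40, -2.20, -3.02, -3.79 and -3.10 at C1, and -5.34, -5.33, -4.03, -3.62 and -4.70 at C2. C2 replicate 4 overlapped both other stages, and the other C2 arrays were lower than every C1 and NC1 array. The difference between C2 and C1 was -1.50 (SE 0.34, limma adjusted p = 0.00123), with 1 C2 array well above background. It was -0.76 with normexp and still passed.

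**Figure D2:**
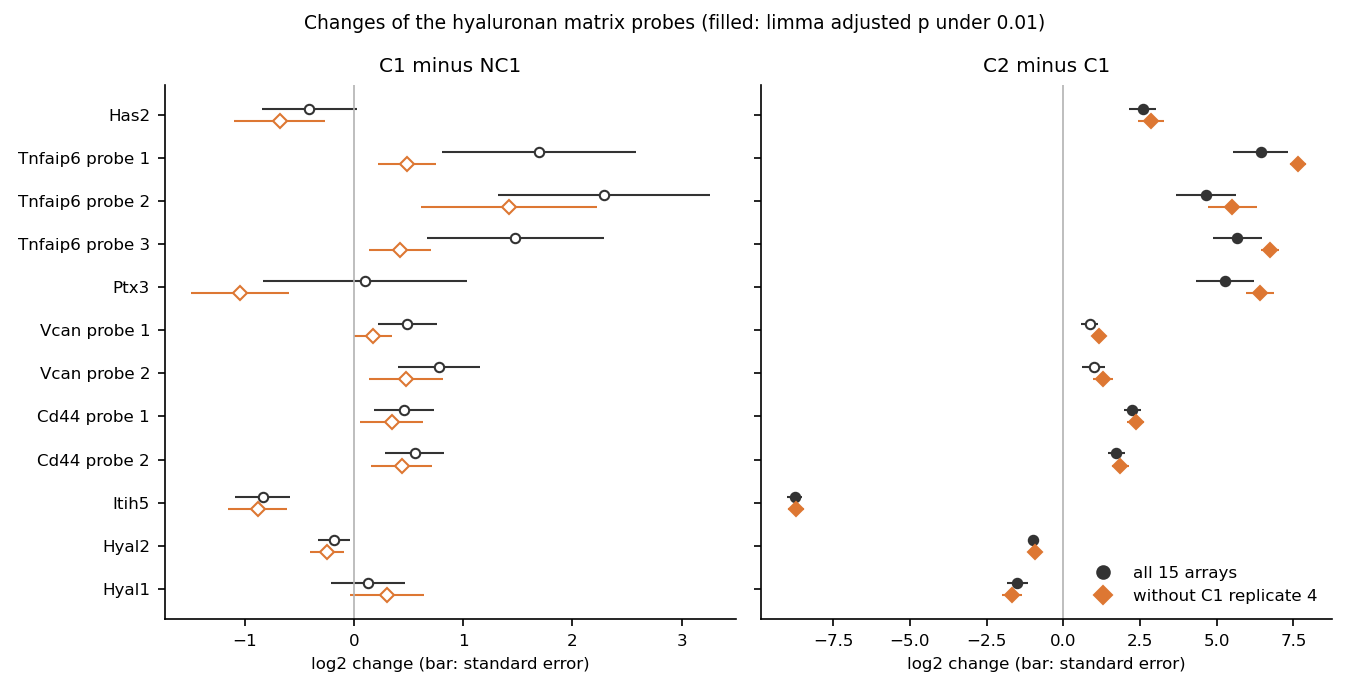
Log2 difference of each member probe (horizontal axis) between C1 and NC1 (left) and between C2 and C1 (right), with the standard error from limma as a bar, circles for all 15 arrays, diamonds without C1 replicate 4, and filled symbols for calls. Between C2 and C1 the differences ran from -8.76 for Itih5 to 6.43 for Tnfaip6 probe 1, and no symbol is filled between C1 and NC1.

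Between NC1 and C1, the juvenile and adult unexpanded complexes, 0 of the 12 member probes were called by limma, against a background of 2.52% of the valid probes and 2.94% of the wider set. At an unadjusted p under 0.05 there were 2, Itih5 and Tnfaip6 probe 2, and the model without moderation also called 0. The C1 and NC1 arrays overlapped in all 12 probes, whereas 6.5% of the wider set did not overlap. Itih5 had the lowest adjusted p, with a difference of -0.84 (SE 0.25, 95% interval -1.37 to -0.30, limma adjusted p = 0.067), and it passed, at -1.05 (adjusted p = 0.00856), without C1 replicate 2. For Has2 the interval ran from -1.33 to 0.51, for Hyal2 from -0.50 to 0.13 and for Tnfaip6 probe 1 from -0.19 to 3.58, so that changes within these intervals are not excluded. Ptx3 differed by 0.10, and by -1.05 without C1 replicate 4, with neither value past the threshold.

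The comparison of C2 with NC1 shares its arrays with both others, which in turn share the C1 arrays. All 12 member probes were called, 9 higher and 3 lower, against 51.5% of the valid probes and 52.4% of the wider set. Tnfaip6 differed by 8.13, 6.93 and 7.15 for its 3 probes, Ptx3 by 5.37, Cd44 by 2.70 and 2.28, Hyal2 by -1.19 and Hyal1 by -1.37.

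C1 replicate 4 was then placed on a scale from the mean of the other C1 arrays (0%) to the C2 mean (100%). It stood at 89.6% for Ptx3 and at 79.4%, 78.5% and 78.4% for the 3 Tnfaip6 probes. For Vcan it stood at 134% and 117%, beyond the C2 mean. It stood at 47.8% for Has2, where C1 replicate 3 stood at 54.7%, and at 23.6% and 32.4% for the Cd44 probes. Of the genes lower at C2, it stood at -2.75% for Itih5, -31.7% for Hyal2 and 51.4% for Hyal1. Over the 3696 valid probes called with at least a doubling or halving of signal between C2 and C1, the median position of C1 replicate 4 was 2.42%, and that of the other C1 arrays -6.48% to 4.22%. The displacement of C1 replicate 4 was thus seen in Ptx3, Tnfaip6 and Vcan, and not in the median of the 3696 probes. Those probes were chosen by a fit that held C1 replicate 4, which disfavours probes where that array lay near C2. Neither Vcan probe passed in that fit. The median therefore cannot tell how far the displacement extended to other genes.

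**Figure D3:**
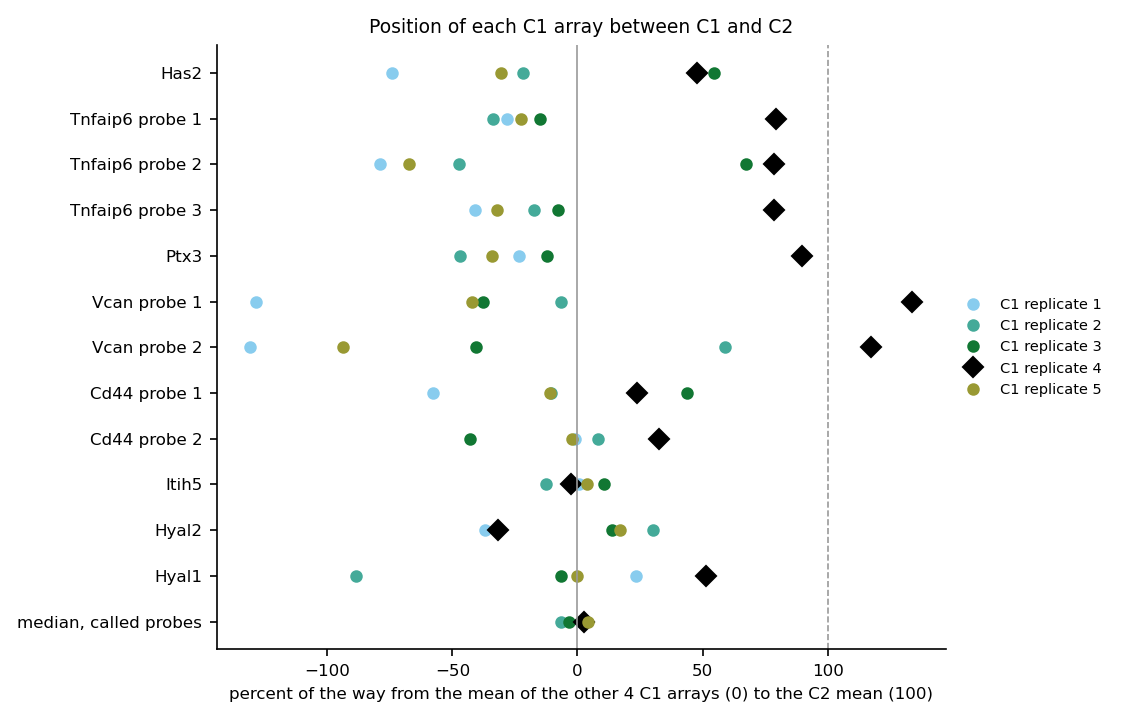
Position of each C1 array (points) for each member probe, in percent of the way from the mean of the other C1 arrays (0) to the C2 mean (100), with C1 replicate 4 as a diamond and, in the last row, the median over the called probes. C1 replicate 4 reached 89.6% for Ptx3 and 134% for Vcan probe 1 while it stayed at -2.75% for Itih5.

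Genes of the ovulatory response were looked at in the same array. Areg, Ereg and Btc, the epidermal growth factor-like ligands that carry the gonadotropin signal to the cumulus, were -2.37, 1.19 and -0.45 in C1 replicate 4, against -7.15 to -5.66, -5.91 to -2.57 and -5.84 to -4.61 in the other C1 arrays. Sult1e1, the estrogen sulfotransferase, was 5.18 against -5.95 to -3.91, and Ptgs2, the inducible cyclooxygenase, was -1.88 against -6.73 to -5.57. The transcription factor Runx1 was 1.16 against -0.33 to 0.52. These genes were all above the other C1 arrays in C1 replicate 4. Areg, Ereg, Btc and Sult1e1 were there also above every C2 array, the highest of which were -2.82, 0.01, -0.83 and 2.73. Ptgs2 and Runx1 were below every C2 array, the lowest of which were 0.66 and 2.38. Il6 was -4.25 against -6.81 to -4.37, and -2.34 to -1.67 at C2. Ptger2, the receptor for prostaglandin E2, was -3.88 against -3.82 to -3.19, and so was not raised. The progesterone receptor Pgr was -3.98 against -4.89 to -3.87, and so was not raised. It was well above background in C1 replicate 4 alone of the 15 arrays. In that array signals down to -6.55 counted as well above background, against -4.95 to -3.71 in the other C1 arrays. Lyve1, a hyaluronan receptor, was 0.32 in C1 replicate 4 against -7.02 to -5.66 in the other C1 arrays. At C2 it was well above background in replicate 1 alone, at -2.84, so that C1 replicate 4 was above every C2 array. It was chosen after its values were seen.

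**Figure D4:**
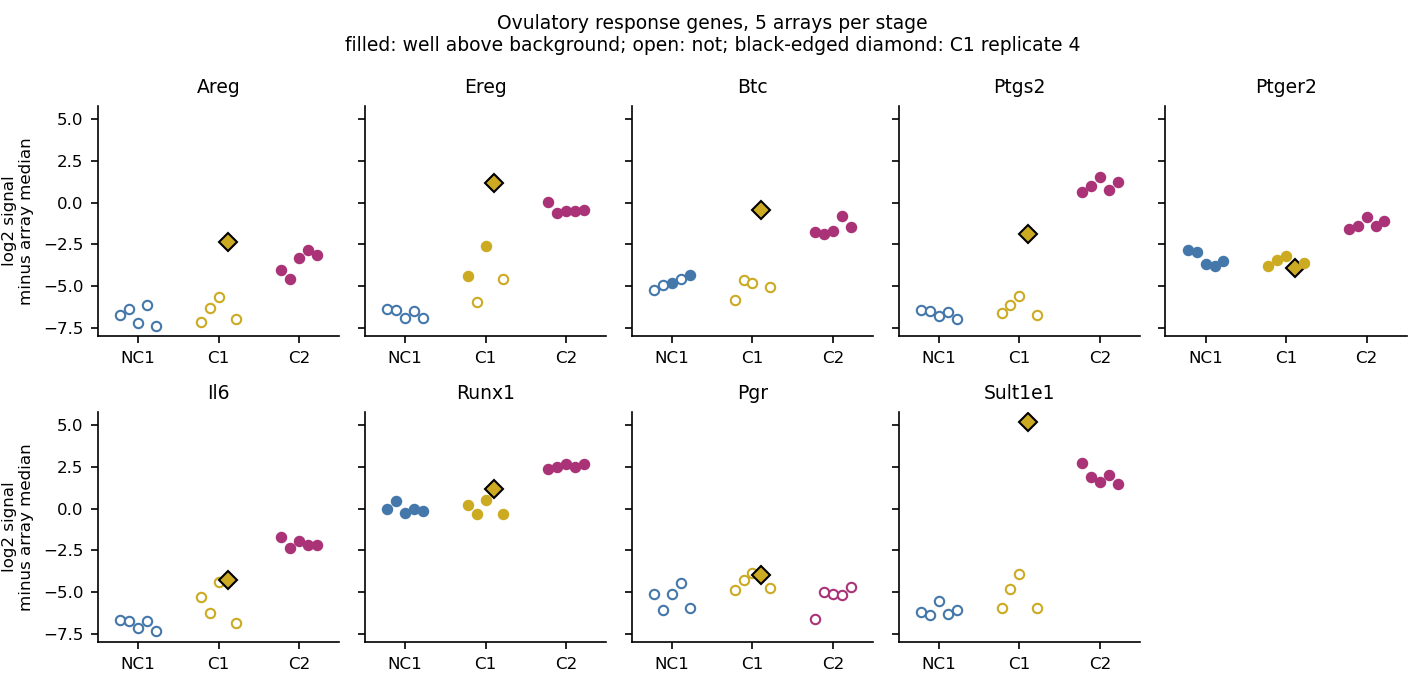
Log2 signal relative to the array median (vertical axis) of 9 ovulatory response genes in the 15 arrays by stage, with filled points for arrays well above background, open points for the rest and C1 replicate 4 as a diamond. Sult1e1 stood at 5.18 and Ereg at 1.19 in C1 replicate 4, above the other C1 arrays and the C2 arrays, whereas Ptger2 stood at -3.88, below the other C1 arrays.

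Other genes of the pathway were described by lists, each gene by its brightest probe, beside a median difference between C2 and C1 of -0.01 over the wider set. Their counts stand against the shares of all probes called given above, which were 47.6% (valid) and 48.7% (wider) between C2 and C1 and 2.52% and 2.94% between C1 and NC1. Several genes entered the tested set only through stages where they were high, so that a difference was built into their entry and no count or median over their lists is evidence of a direction. These were Areg, Ereg, Btc, Ptgs2, Il6 and Sult1e1, through C2 alone, and Bcan, Itih2, Itih4, Adamts5 and Adamts15, which did not pass at C2. Stab2 entered through C1 alone, and Cemip did not pass at NC1. Among the genes of hyaluronan synthesis and its sugar precursors, 7 of 8 were tested, 4 rose and 0 fell at C2, with a median of 0.48, and all 7 were valid probes. Ugdh, which makes UDP-glucuronate, rose from 1.86 ± 0.37 (SD, n = 5) to 3.55 ± 0.26 (difference 1.69, limma adjusted p = 3.09e-07). Gfpt2, of the hexosamine pathway, rose by 1.34 (adjusted p = 3.01e-06), Ugp2, which makes UDP-glucose, by 1.06 (adjusted p = 3.26e-07) and Uap1, which makes UDP-N-acetylglucosamine, by 0.48 (adjusted p = 0.00675). Uap1 no longer passed without C1 replicate 1, 2, 3 or 5 or C2 replicate 1, 4 or 5 (0.41 to 0.50), nor with the slide as a block, quantile normalization, spike-in controls (0.32) or no filter on dim probes.

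Of the 6 link proteins and hyalectans other than the members, 2 were tested and both fell, with a median of -3.11 (-2.90 with Bcan at its bound). Bcan, the proteoglycan brevican, was well above background in all C1 and no C2 arrays and at least 30.7-fold higher at C1, and the link protein Hapln3 fell by 0.87 (limma adjusted p = 1.41e-06). Of 5 further genes of inter-alpha-inhibitor and its heavy chain family, 2 were tested. Both fell, with a median of -3.06 (-2.71 at the bound). Itih2, a heavy chain of inter-alpha-inhibitor, was higher at C1 by at least 19.7-fold, with no C2 array well above background. Itih4 fell by 1.12 (limma adjusted p = 0.00152), and by 0.43 with normexp, where it no longer passed (adjusted p = 0.0395). Of the 5 further hyaluronan receptors 4 were tested, with 0 called in limma and a median of -0.46.

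Among the 9 further genes of hyaluronan breakdown, 5 were tested, 1 rose and 4 fell at C2, with a median of -0.74. Cemip, a hyaluronan-binding protein needed for its depolymerisation, rose by 1.95 (limma adjusted p = 4.47e-04). It had also risen between NC1, where no array was well above background, and C1, which was at least 2.60-fold higher (adjusted p = 2.93e-04, and 0.0700 with normexp). Gusb, Cemip2 and Hexa fell by 0.84, 0.82 and 0.74. These 3 no longer passed with scaling by all gene probes or in the authors' table (-0.53 to -0.44), nor, Gusb excepted, with spike-in controls (-0.98 and -0.90).

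Of the 6 proteases that cleave versican, 5 were tested, 2 rose and 2 fell between C1 and C2, with a median of 0.62. Adamts4 rose by 3.03 (limma adjusted p = 3.77e-08) and Adamts9 by 1.30 (adjusted p = 4.75e-05). Adamts5 fell by 3.03 (adjusted p = 1.29e-05), and Adamts15, with no C2 array well above background, was at least 2.23-fold higher at C1 (adjusted p = 0.00324). Adamts1 was higher at C1 than at NC1, by 1.62 (limma adjusted p = 3.29e-04). Between C1 and C2 it differed by 0.62 (limma adjusted p = 0.0306). That difference passed without C1 replicate 3 (0.78) or C2 replicate 2 (0.76) and with scaling by all gene probes (0.92).

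Of the 9 ovulatory response genes 8 were tested, 5 rose and 0 fell at C2, with a median of 2.73, of which Ptger2 and Runx1 were valid probes. Pgr was not tested. Ptgs2 rose by 6.41 (limma adjusted p = 7.96e-07), Il6 by 3.32, Btc by 2.63 and Ptger2 by 2.33. Btc no longer passed without C1 replicate 1, 2, 3 or 5 or C2 replicate 4 or 5 (2.21 to 2.61). Areg, Ereg and Sult1e1 did not pass with all arrays and passed without C1 replicate 4, with 2.94, 3.94 and 7.10, and also with scaling by all gene probes, with 2.42, 3.14 and 5.34. Between NC1 and C1 the lists held 1 call each for hyaluronan breakdown and versican cleavage, Cemip and Adamts1, and 0 for the other 5, each from the same limma fit. Ereg passed in that comparison without C1 replicate 4 (2.25) and Il6 without C1 replicate 5 (1.88).

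**Figure D5:**
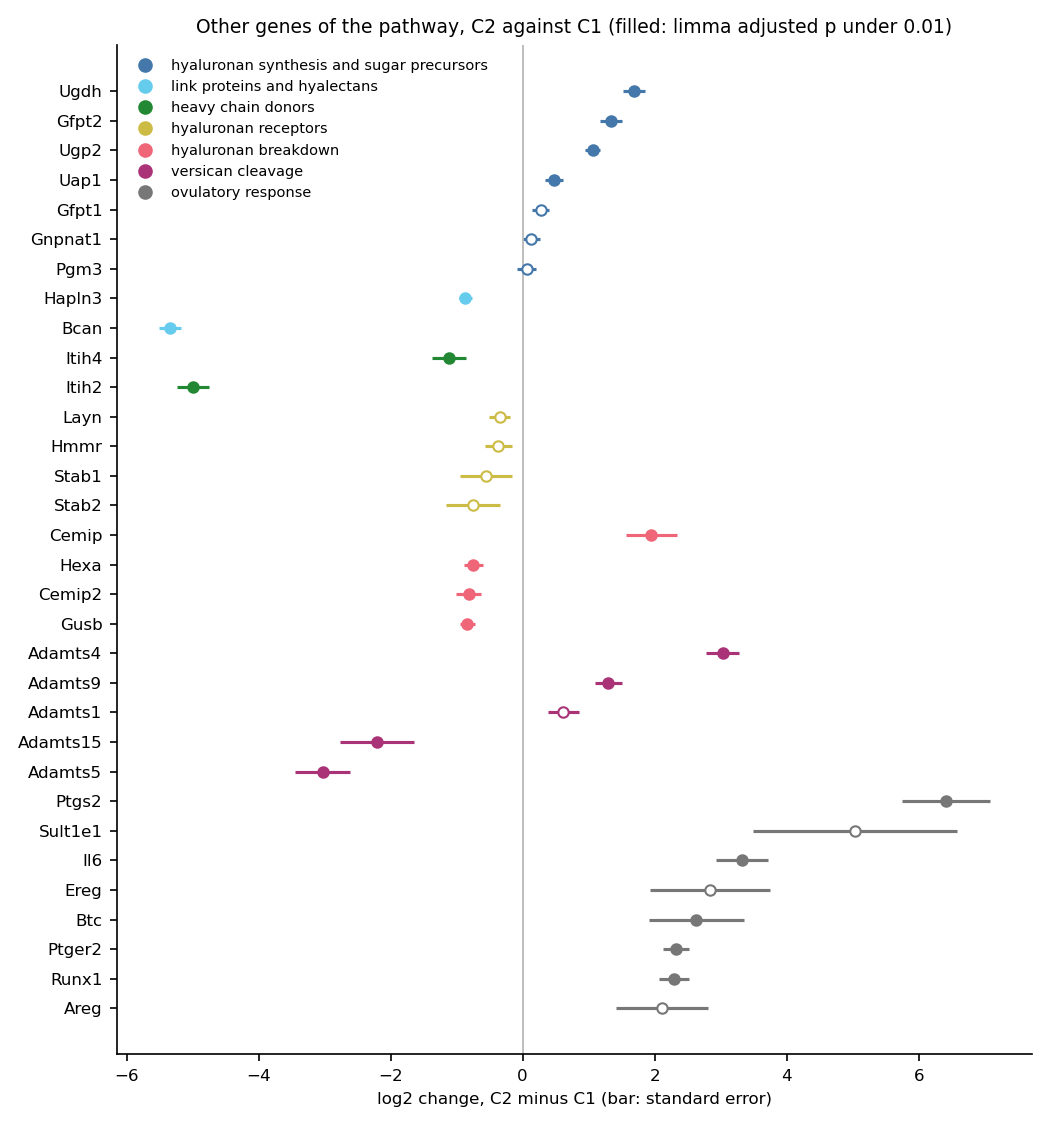
Log2 difference between C2 and C1 (horizontal axis) of the tested genes of the 7 pathway lists (1 gene of hyaluronan breakdown is not shown), 1 point per gene coloured by list, with the standard error as a bar and called genes filled. Sugar precursor genes lie at or to the right of 0.48 where called. The tested genes of the lists labelled link proteins and hyalectans and heavy chain donors lie to the left of 0.

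The genes outside the list whose 15 values were most like those of 3 members were found by Pearson's r, as a description in which all arrays share the 3 stages. For Has2 they were Slc5a7 (r = 0.968), Ripk2 (0.945) and Ttc9 (0.939). For Tnfaip6 probe 1 they were Slc7a8 (0.992), Trf (0.990) and Rnf125 (0.989), and for Ptx3 Osgin2 (0.974), Fzd1 (0.966) and Vcl (0.963). Without C1 replicate 4 the r of these genes ran from 0.945 to 0.992, but the order changed. The first 3 were then Slc5a7, Ttc9 and Apaf1 for Has2, Cul4b, Mis18a and Pla1a for Tnfaip6, and Jak2, Rai14 and Fzd1 for Ptx3, so that which genes ranked first depended on that array.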

How the data were processed

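Cumulus cell RNA (0.35 µg per array, per the labels) was labelled and hybridised to 15 one-colour Agilent mouse arrays, 5 per stage. The authors deposited the scanner output, whose intensity columns hold the processed signal of each spot, and a table with 20855 gene probes on the log2 scale, which equalled the log2 scanner signal plus a constant per array (SD at most 0.00819). Feature Extraction was version 10.7.1.1 per the file headers and 10.5.1.1 per the submitters' processing notes, and the array's genome build is not given in the sources used here.

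Flagged spots were left out of the 43020 gene spots, the spots of each of 39429 gene probes were averaged as log2 processed intensity, and the array median over 17323 valid probes was subtracted (valid in 80% of the arrays of each stage). The study's methods scale each array by its median without naming the probes, and in the deposited table the median difference of valid probes between C2 and C1 was 0.33, as with the median of all gene probes, against 0.02 here, a departure that changes the calls of Hyal2 and Vcan. No spot was saturated. Gene symbols came from the deposited table (2776 probes by it alone) and from transcript records matched to RefSeq (GRCm38.p6, 26049 probes), and 10604 probes stayed unnamed. One limma model (version 3.58.1, R 4.3.3) held all 15 arrays, with Benjamini-Hochberg adjustment at 0.01 over the valid probes, or over the 20844 probes of the wider set for members outside them. The fit was tested on simulated data. Where no array of a stage was well above background, a fold is the bright mean against, per array, the higher of the probe's own signal and the lowest signal of a probe well above background. Summed levels are sums of linear signal relative to the array median.

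The arrays lay on 4 slides, each holding all 3 stages. Replicate numbers were not treated as pairs in the main model. Of 15 same-numbered pairs, 4 had a correlation of deviations over 0.1. Between C1 and NC1, replicates 2, 4 and 5 had 0.35, 0.34 and 0.34 and were closest to their own number. Whether the numbers pair the samples was therefore not settled. Alternatives were other scalings, normexp (offset 50, on the median signal, since the mean signal is not among the columns used here), the deposited table, other filters, spots with flags kept, no moderation, blocks, and the omission of each array. Every probe of a listed gene was named, up to 4 called genes of each pathway list by size of change, and the 3 genes most like Has2, Tnfaip6 and Ptx3. The members and lists were chosen with earlier results of these data known. The number of arrays limits the precision. Values of 2 genes of the lists are not reported here.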

Additional observations from a re-analysis of the deposited data

Results flagged for a closer look

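Of the 36 groups of 5 arrays given by 12 member probes and 3 stages, 3 held an array far from the others, with a gap to its nearest neighbour above 0.71 of the group's range, and all 3 were C1 replicate 4. For 5 independent, normally distributed values, chance gives such a gap in about 1 in 20 groups. The 36 groups share arrays and genes, and some hold values near background, so that this rate does not apply to their count. The members were also chosen with earlier results of these data known, so that the flags are a description only. Ptx3 was 0.81 in that array and -5.60 to -4.30 in the other C1 arrays. Tnfaip6 probe 1 was 2.70 against -3.77 to -2.90, and Tnfaip6 probe 3 was -1.09 against -7.03 to -5.67. The 2 Tnfaip6 values come from the same gene and array. What set this array apart was not tested.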

How the results depend on the processing

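Over all alternatives for the member probes, 938 values kept their side of the threshold, 8 newly passed it and 2 no longer passed it. No value past the threshold changed sign, while some below it did (Ptx3 and Hyal1 between C1 and NC1). Both losses were Hyal2 between C2 and C1. The 8 gains were Vcan probes 1 and 2 with scaling by all gene probes, in the authors' table and without C1 replicate 4, Vcan probe 1 with the replicate block (0.86, limma adjusted p = 0.00832), and Itih5 between C1 and NC1 without C1 replicate 2. Leaving out 1 array at a time, the valid member probes called between C2 and C1 numbered 2 to 4 (2 with all arrays, 4 without C1 replicate 4), and those of the wider set called between C1 and NC1 numbered 0 to 1 (1 without C1 replicate 2). With the replicate block, 3 valid member probes and 8 of the wider set were called between C2 and C1, and the count between C1 and NC1 was 0. Whether the numbers pair the samples was not settled. The correlations of deviations ran from -0.24 to 0.35, and 3 arrays were closest to their own number, all between C1 and NC1. With the slide as a block the calls of member probes between C2 and C1 were as reported, with Vcan probe 1 at 0.71 (limma adjusted p = 0.0178). At C1, 6 member probes were well above background in at least 4 arrays, and 10 by the scanner's less strict call of a positive and significant signal. For genes of the pathway lists and markers 3918 values kept their side of the threshold, 37 newly passed and 47 no longer passed it, and sign changes occurred only in values that did not pass. Signals near background limit Has2, Ptx3, Tnfaip6 probes 2 and 3, Itih5, Cd44 and Hyal1, whose differences between C2 and C1 shrank with normexp.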
